A study of Homo sapiens with 4 samples.

Results

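The centromere, kinetochore and spindle checkpoint genes were followed by RNA-seq in ovarian cancer stem cells (OCSCs) treated with the estrogen receptor beta agonist LY500307. The 47 genes were chosen by symbol, and all 47 were found among the 23228 gene symbols counted. All 47 passed the filter on low counts, which left 14473 genes tested. SKOV3 is a long-established line of human ovarian cancer cells, and its OCSCs were those sorted for aldehyde dehydrogenase activity (ALDH+) and grown as spheroids in serum-free medium with growth factors. The Vehicle group (2 samples) received vehicle, and the LY500307 group (2 samples) received 5 µM LY500307, both for 24 h. Every sample came from this 1 cell line, and the labels do not say whether the 2 samples of a group were separate cultures, so the p-values measure the spread between these samples, which may be technical.

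The centromere is marked by nucleosomes that carry the histone variant CENP-A. A constitutive network of CENP proteins sits on these nucleosomes, and in mitosis it recruits the outer kinetochore, whose NDC80 complex grips the ends of spindle microtubules. The spindle checkpoint reads unattached kinetochores and holds back anaphase, and most of these genes are transcribed periodically, with the highest RNA levels in G2 and mitosis. In bulk RNA, a change in the share of cells in G2 or mitosis and a change in RNA per cell cannot be told apart. By flow cytometry the study reported a larger G2/M share of OCSCs with LY500307 than with vehicle, at a later time than the RNA. From the RNA-seq itself, its gene set analysis reported negative enrichment with LY500307 for mitotic spindle, G2/M checkpoint and E2F target genes.

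Between 28841701 and 34943882 reads per sample were counted on genes. The Vehicle replicates differed less from each other (chi-square per degree of freedom 5.16) than the LY500307 replicates (42.5). Reads on no gene were 29.6% and 30.8% of the uniquely aligned reads in the Vehicle samples, and 28.4% and 25.5% in the LY500307 samples. The part of these differences in the results was not tested. Of the 5 epithelial markers checked, EPCAM was between 194 and 240 CPM (the usual count scaled to library size) and KRT18 between 23.5 and 31.8 CPM, whereas KRT8 did not exceed 1.02 CPM, and CDH1 and KRT19 were at or near 0 in every sample. ERBB2, which is amplified in SKOV3, was between 48.7 and 59.4 CPM. This was below EPCAM and the collagen genes COL1A1 and COL3A1 in every sample, so the ERBB2 level does not speak for the line. Defining epithelial markers near 0 go against what is usual for this line, and its identity was not settled from these data. Among markers of other cell types, the leukocyte genes PTPRC and CD3E and the endothelial genes PECAM1 and CDH5 had at most 4 reads in any sample, and CD68 had 372 to 620. LYZ and VWF had at most 11 reads, PDGFRB had 40 to 88 and DCN 263 to 283, while the collagen genes COL1A1 and COL3A1 were between 182 and 517 CPM, which is also unusual for an epithelial line. The aldehyde dehydrogenase gene ALDH1A1 was between 4.71 and 5.41 CPM, and ALDH1A3 had 8 to 16 reads per sample. No unsorted cells were sequenced, so these levels cannot check the sort. ESR2, which encodes estrogen receptor beta, had 7 to 12 reads per sample, and ESR1 had 0 reads in each.

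Many mitotic promoters carry a cell cycle genes homology region (CHR, TTTGAA), and CCAAT boxes often lie beside it. RefSeq promoters (GRCh38.p14, 250 bases before to 50 bases after the annotated start) were matched for 39 of the 47 genes, and those of MIS18A, CENPH, CENPL, CENPM, CASC5, KNTC1, BUB3 and TTK were not. The stretches shown are the 120 bases before the start, 5′ to 3′ on the gene's strand. The first 3 belong to genes that fell with a CHR in this stretch, the next 2 to genes that fell without one, and the last to a gene that rose. Capitals mark each CHR or CCAAT match on either strand, so that a CHR on the opposite strand appears as TTCAAA.
CENPC1, chr4:67545504-67545623, minus strand: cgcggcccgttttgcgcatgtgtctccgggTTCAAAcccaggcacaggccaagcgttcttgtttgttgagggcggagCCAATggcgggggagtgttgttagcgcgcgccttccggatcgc
HJURP, chr2:233854536-233854655, minus strand: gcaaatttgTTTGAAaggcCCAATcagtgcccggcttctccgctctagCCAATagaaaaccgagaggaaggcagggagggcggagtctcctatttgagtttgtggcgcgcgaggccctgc
BUB1B, chr15:40160949-40161068, plus strand: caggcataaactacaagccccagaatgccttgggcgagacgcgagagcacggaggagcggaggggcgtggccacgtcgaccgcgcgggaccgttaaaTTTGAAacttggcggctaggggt
CENPE, chr4:103198344-103198463, minus strand: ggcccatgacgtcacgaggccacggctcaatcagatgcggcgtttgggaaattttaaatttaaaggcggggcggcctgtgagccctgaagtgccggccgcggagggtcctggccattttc
SGOL2, chr2:200526022-200526141, plus strand: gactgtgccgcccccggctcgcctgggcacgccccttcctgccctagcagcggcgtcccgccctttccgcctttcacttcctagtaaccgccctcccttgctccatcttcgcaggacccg
MAD2L2, chr1:11691560-11691679, minus strand: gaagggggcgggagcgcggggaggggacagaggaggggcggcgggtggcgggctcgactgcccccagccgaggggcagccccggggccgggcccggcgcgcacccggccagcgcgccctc

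Over the whole 300-base windows and both strands, the CHR was found in 15 of the 39 promoters (38.5%), against 15.4% of all 27305 promoters in the table. It was found in 7 of the 12 promoters of genes that fell (58.3%) and in 8 of the other 27 (29.6%). The CCAAT box was found in 56.4% of the 39 promoters and 35.7% of all promoters, with 7 of the 12 (58.3%) and 15 of the other 27 (55.6%). An E2F-type motif (TTCCCGC or TTGGCGC) was found in 28.2% and 9.33%, and its split went the other way, with 1 of the 12 (8.33%) and 10 of the other 27. The arm of the estrogen response element (GGTCA) was found in 41.0% and 37.8%. The full element (GGTCA, any 3 bases, TGACC) was found in 0 of the 39 promoters and in 18 of all. These matches are letters in a window and no test was made of them.

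To find which of these genes changed with LY500307, counts were normalized by edgeR's TMM method and tested with its quasi-likelihood test. The study's criteria asked for an absolute log2 fold change above 0.5 together with an unadjusted p below 0.05, and 4.62% of all genes tested met them. In what follows, a gene rose or fell if its unadjusted p was below 0.05. Of the 47 genes, 15 fell and 2 rose, where 5.5% of all genes tested fell and 6.09% rose. At the study's criteria 5 genes were lower, namely CENPE, CENPC1, CASC5, SGOL2 and NUF2, against 1.86% of all genes tested. CENPM and MAD2L2 were higher at these criteria, as were 2.76% of all genes tested. After adjustment over all 14473 genes, edgeR left 0 of the 47 genes below 0.05 and 0% of all genes, and the 17 genes that changed had adjusted p-values of 0.422 to 0.428. With DESeq2, 12 genes fell and 2 rose (4.46% and 5.42% of all genes), and 0 of the 47 stayed below 0.05 after adjustment (smallest adjusted p = 0.0824, DESeq2), against 0.138% of all genes. With library totals alone in place of TMM, 2 genes met the criteria for lower genes, against 1.45% of all genes.

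The median log2 fold change of the 47 genes was -0.18, and that of all genes tested was 0.00. It was below 0 for 30 of the 47 genes, against 50% of all genes. For 25 of the 47 genes both LY500307 samples lay below both Vehicle samples, against 24.4% of all genes tested. For 5 genes both lay above, against 24.2%. The groups of the other 17 genes overlapped. Summed over the 47 genes, the level was 3216 and 3188 CPM in the Vehicle samples and 2804 and 2570 CPM in the LY500307 samples. The plot of fold changes by role shows that the genes that fell were spread over 7 of the role groups.

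**Figure D1:**
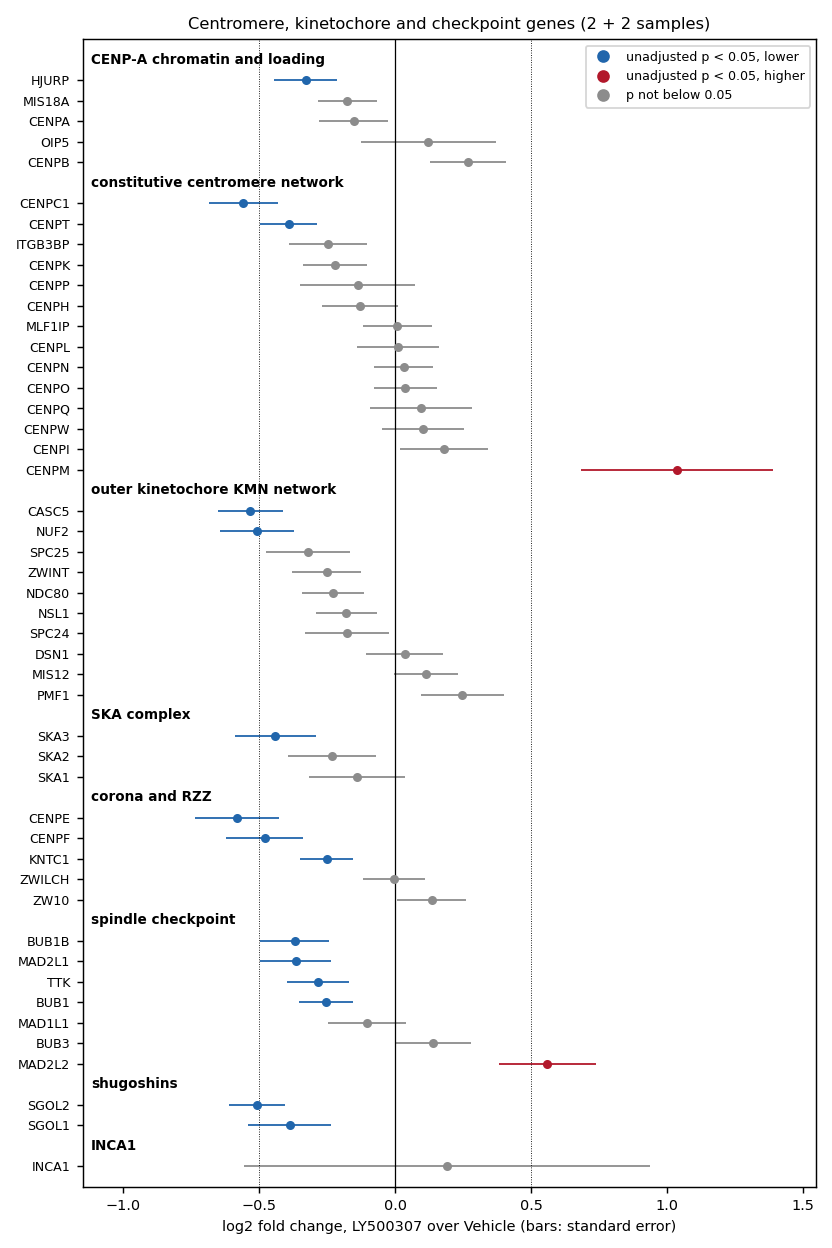
Log2 fold change of LY500307 over Vehicle (x axis) for the 47 genes, grouped by role, with the standard error as bars and dotted lines at an absolute log2 fold change of 0.5. The 15 genes in blue lie between -0.58 and -0.25, and the 2 in red are CENPM at 1.04 and MAD2L2 at 0.56.

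In the group that builds and marks CENP-A chromatin, 1 of 5 genes fell, against 5.5% of all genes tested. HJURP, the chaperone that delivers CENP-A to the centromere, was at 84.7 and 80.9 CPM in the Vehicle samples and at 71.2 and 60.6 CPM in the LY500307 samples. Both LY500307 values lay below both Vehicle values, and HJURP fell (log2 fold change -0.33, standard error 0.12, adjusted p = 0.422, edgeR). CENPA itself, which encodes the histone variant, was at 23.9 and 24.6 CPM and then at 22.0 and 21.7 CPM. Its groups did not overlap, but the difference (log2 fold change -0.15, standard error 0.13) did not pass the test. MIS18A and OIP5, which encode subunits of the complex that licenses the centromere for new CENP-A, had log2 fold changes of -0.18 and 0.12. CENPB, which encodes a protein that binds a box in alphoid satellite DNA, was higher in both LY500307 samples but did not pass the test (log2 fold change 0.27, standard error 0.14).

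Of the 14 genes of the constitutive centromere network, 2 fell, 1 rose and 11 did not pass the test, with a median log2 fold change of 0.01. Over all genes tested, 5.5% fell and 6.09% rose, and a difference from these shares was not tested. CENPC1, on chromosome 4 of GRCh37 from 68334480 to 68411221, encodes CENP-C, which bridges CENP-A nucleosomes and the outer kinetochore. It was at 38.9 and 38.0 CPM with vehicle and at 27.8 and 24.4 CPM with LY500307. The groups did not overlap, and CENPC1 fell by 32.1% (log2 fold change -0.56, standard error 0.13, adjusted p = 0.422, edgeR). CENPT, which encodes the other inner protein that recruits the NDC80 complex, was at 68.0 and 70.0 CPM and then at 54.3 and 51.0 CPM. CENPT also had groups that did not overlap, with a log2 fold change of -0.39 (standard error 0.10). Parts of CENPT exons overlap NUTF2 and THAP11 on the opposite strand.

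CENPM rose, and its rise was uneven between the LY500307 samples. CENPM encodes a subunit of the network beside CENP-I, CENP-H and CENP-K, and lies on chromosome 22 of GRCh37 from 42334741 to 42343156. With vehicle its reads numbered 149 and 167 (4.97 and 5.88 CPM), and with LY500307 they numbered 238 and 499 (6.86 and 15.4 CPM). Both LY500307 samples lay above both Vehicle samples, and the rise passed the test (log2 fold change 1.04, standard error 0.35, adjusted p = 0.422, edgeR). It was 0.34 when the second LY500307 sample was left out and 1.51 when the first was. The partner genes CENPI, CENPH and CENPK had log2 fold changes of 0.18, -0.13 and -0.22, which did not pass the test. The other 8 genes of the network (CENPL, CENPN, CENPO, CENPP, CENPQ, CENPW, MLF1IP and ITGB3BP) lay between -0.25 for ITGB3BP and 0.10 for CENPW.

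In the outer kinetochore, 2 of 10 genes fell, against 5.5% of all genes tested, and 8 did not pass the test. CASC5, on chromosome 15 of GRCh37 from 40886218 to 40956540, encodes KNL1, the scaffold on which the checkpoint kinases BUB1 and BUBR1 assemble. It was at 107 and 114 CPM with vehicle and at 83.6 and 69.2 CPM with LY500307. The groups did not overlap, and CASC5 fell by 30.9% (log2 fold change -0.53, standard error 0.12, adjusted p = 0.422, edgeR). NUF2, on chromosome 1 from 163236366 to 163325554, encodes the partner of the NDC80 protein in the microtubule-binding arm of the NDC80 complex. It was at 53.0 and 45.4 CPM and then at 37.1 and 32.1 CPM, a fall of 29.7% with groups that did not overlap (log2 fold change -0.51, standard error 0.13).

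The other subunits of the NDC80 complex did not pass the test. The log2 fold change of NDC80 was -0.23 (standard error 0.11), that of SPC24 was -0.18 and that of SPC25 was -0.32, and for each of them both LY500307 samples lay below both Vehicle samples. The MIS12 complex, which links this arm to the inner network, showed no common direction, with log2 fold changes of 0.11 for MIS12, 0.04 for DSN1, -0.18 for NSL1 and 0.25 for PMF1. PMF1 shares exons with the read-through gene PMF1-BGLAP on the same strand. ZWINT, which encodes a partner of KNL1, was at 164 and 171 CPM and then at 157 and 124 CPM (log2 fold change -0.25, standard error 0.13).

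SKA3, a subunit of the complex that tracks shrinking microtubules, fell from 42.7 and 44.4 CPM to 36.3 and 27.8 CPM. Its groups did not overlap (log2 fold change -0.44, standard error 0.15). SKA1 and SKA2 had log2 fold changes of -0.14 and -0.23, did not pass the test, and had groups that overlapped. SKA2 was at 98.7 and 107 CPM in the Vehicle samples and at 102 and 72.1 CPM in the LY500307 samples, so that 1 LY500307 sample lay between the Vehicle samples.

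Of the 5 genes of the fibrous corona, the outermost layer of the kinetochore, 3 fell, against 5.5% of all genes tested. CENPE, on chromosome 4 of GRCh37 from 104026506 to 104119602, encodes the kinesin that carries chromosomes to the spindle equator. It was at 192 and 187 CPM with vehicle and at 148 and 105.7 CPM with LY500307. CENPE fell by 33.2% (log2 fold change -0.58, standard error 0.15, adjusted p = 0.422, edgeR), and the LY500307 samples differed more from each other than the Vehicle samples did. The log2 fold change was -0.36 when the second LY500307 sample was left out and -0.84 when the first was. CENPF, which encodes a large corona protein that binds dynein regulators, had the highest CPM of the 47 genes. It was at 607 and 571 CPM and then at 477 and 367 CPM (log2 fold change -0.48, standard error 0.14).

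KNTC1, ZW10 and ZWILCH encode the subunits of the RZZ complex, which brings dynein and the MAD1-MAD2 complex to the kinetochore. Only KNTC1 of these 3 fell, from 141 and 131 CPM to 113 and 116 CPM (log2 fold change -0.25, standard error 0.10). ZW10 had a log2 fold change of 0.13 and ZWILCH of 0.00, and the groups of both overlapped. A difference in fold change between subunits was not tested.

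Among the 7 checkpoint genes, 4 fell, 1 rose and 2 did not pass the test, where 5.5% of all genes tested fell and 6.09% rose. BUB1B, which encodes the BUBR1 subunit of the mitotic checkpoint complex, was at 201 and 183 CPM with vehicle and at 164 and 133 CPM with LY500307. MAD2L1, which encodes the MAD2 subunit of the same complex, was at 90.5 and 104 CPM and then at 83.2 and 67.8 CPM. In both genes the groups did not overlap, and the log2 fold change was -0.37 for each, with a standard error of 0.13.

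Both kinase genes of the checkpoint fell as well. TTK, which encodes the kinase MPS1 that starts checkpoint signalling, was at 68.0 and 73.2 CPM and then at 61.7 and 54.3 CPM (log2 fold change -0.28, standard error 0.11). BUB1, whose product also marks centromeric chromatin for shugoshin, was at 138 and 150 CPM and then at 125 and 116 CPM (log2 fold change -0.25, standard error 0.10). In both genes the LY500307 samples lay below the Vehicle samples. BUB3 and MAD1L1, which encode the partners of BUB1 and MAD2, had log2 fold changes of 0.14 and -0.10 with groups that overlapped.

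MAD2L2 rose, from 26.1 and 24.2 CPM to 30.5 and 43.6 CPM. It lies on chromosome 1 of GRCh37 from 11718975 to 11751868 and is a relative of MAD2 by name and fold, known chiefly as a subunit of DNA polymerase zeta and of shieldin, which acts in DNA break repair. The groups did not overlap, and the rise passed the test (log2 fold change 0.56, standard error 0.18, adjusted p = 0.422, edgeR). It was 0.28 when the second LY500307 sample was left out and 0.80 when the first was.

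Both shugoshin genes, whose products protect the cohesin that holds sister centromeres together, fell. SGOL2, on chromosome 2 of GRCh37 from 201374731 to 201448819, had the smallest p of the 47 genes. It was at 74.0 and 71.8 CPM with vehicle and at 52.7 and 49.8 CPM with LY500307, so that the groups did not overlap and the replicates of each group stood close together. SGOL2 fell by 29.7% (log2 fold change -0.51, standard error 0.10, adjusted p = 0.422, edgeR). SGOL1 was at 27.2 and 29.8 CPM and then at 24.3 and 19.3 CPM (log2 fold change -0.39, standard error 0.15).

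INCA1 encodes an inhibitor of cyclin-dependent kinase and cyclin A1, and is not known as a centromere or kinetochore protein. Its reads numbered 12 and 4 with vehicle and 14 and 7 with LY500307, and its log2 fold change of 0.19 had a standard error of 0.75. No difference was detectable at this depth. The other 46 genes had at least 149 reads in every sample.

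The falls were larger in LY500307 replicate 2 than in replicate 1. Of the 15 genes that fell, 14 were lower in replicate 2, the exception being KNTC1. Against the mean of the Vehicle samples, the median log2 ratio of these 15 genes was -0.27 in replicate 1 and -0.55 in replicate 2. Without LY500307 replicate 2, 16 of the 47 genes had an unadjusted p below 0.05 and a lower level (8.14% of all genes), but 0 genes met the study's criteria for lower genes, against 1.37% of all genes. Without LY500307 replicate 1, 11 genes met them, against 6.17% of all genes. Leaving out either Vehicle sample, 5 genes had an unadjusted p below 0.05 and a lower level (1.91% and 2.16% of all genes). Both fits with a lone LY500307 sample took their spread from the Vehicle pair, and assume that this sample varies like it. The plot of single samples shows this order.

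**Figure D2:**
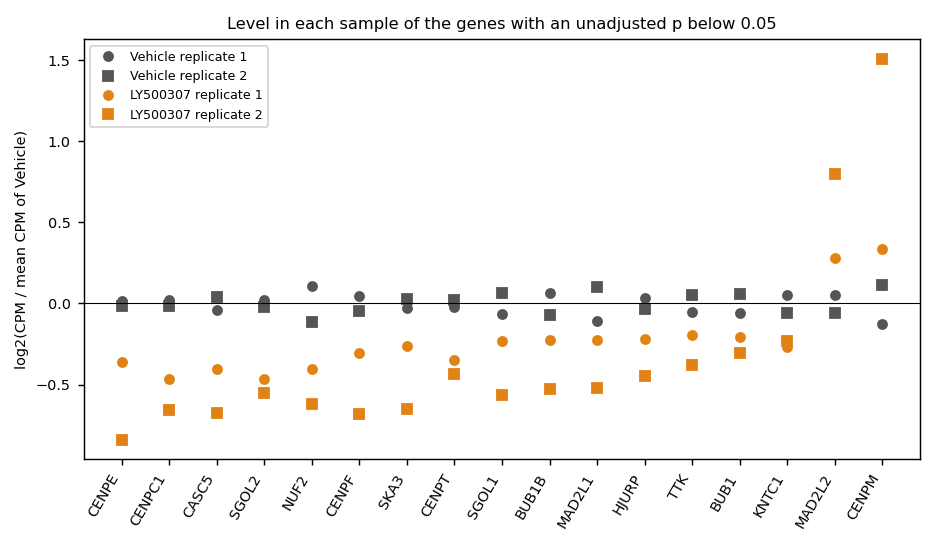
Level in each sample, as log2 of its CPM over the mean CPM of the Vehicle samples (y axis), for the 17 genes with an unadjusted p below 0.05, ordered by fold change. Orange points (LY500307) lie below the grey points (Vehicle) for 15 genes and above them for MAD2L2 and CENPM, and the orange squares (replicate 2) lie farthest out except for KNTC1.

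Most of the 47 genes were rich in A and T, whether they fell or not. The GC content of the annotated transcript had a median of 41.1% over the 47 genes and 48.5% over the genes tested that had a match. It was 38.9% over the 15 genes that fell and 42.7% over the 30 that did not pass the test. Across the 47 genes, GC content and log2 fold change had a Spearman rho of 0.48, and across 13782 genes tested a rho of 0.34, as a description of genes that share the same 4 libraries. Over all genes tested, the fitted difference between the groups was -0.16 (log2) at a GC content of 35% and 0.10 at 60%. Of the 9 genes above 50% GC, CENPM (59.7%) and MAD2L2 (60.2%) rose and CENPT (59.0%) fell. Of the 38 genes at or below 50%, 14 fell and 0 rose. Over all genes tested, at any GC content, 5.5% fell and 6.09% rose. The shares of all genes on either side of 50% GC were not computed, so this split is not set apart from the trend over all genes.

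With this trend subtracted in each sample, 10 of the 15 genes that fell kept an unadjusted p below 0.05 and a lower level (4.99% of all genes), and KNTC1, BUB1, MAD2L1, TTK and SGOL1 did not. The lower genes at the study's criteria went from 5 to 0, against 1.9% of all genes. The corrected log2 fold changes were -0.42 for CENPE, -0.44 for CENPC1, -0.41 for CASC5, -0.41 for NUF2 and -0.35 for SGOL2. That of CENPT, with its GC-rich transcript, was -0.48, and that of HJURP was -0.34. CENPM stayed past the criteria at 0.92 (1.94% of all genes were higher at them) and MAD2L2 was at 0.45. The median over the 47 genes was -0.11.

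**Figure D3:**
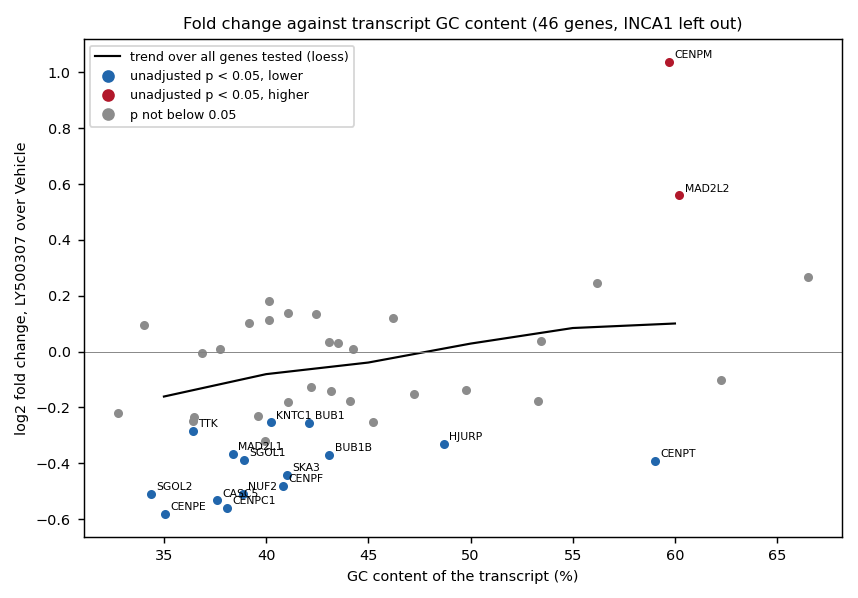
Log2 fold change (y axis) against the GC content of the annotated transcript in percent (x axis) for 46 genes, with the loess trend over all genes tested as a line. All 15 genes in blue lie below the line 14 of them at GC contents of 34.4% to 48.7% and CENPT at 59.0%, and the 2 in red lie above it near 60%.

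Transcript length and level also went with the fold change across the 47 genes (Spearman rho -0.42 for length and -0.48 for mean CPM), where rho was -0.22 and -0.08 across all genes. The median annotated transcript was 3762 bases for the 15 genes that fell and 2392 bases for the 30 that did not pass the test. Per kilobase of transcript, the mean Vehicle level of the 46 genes ran from 1.09 CPM per kb for CENPP to 90.1 CPM per kb for ZWINT. CENPF, first by CPM, was at 57.2 CPM per kb, below ZWINT and just above BUB1B at 52.2 CPM per kb.

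Within complexes these levels differed by several fold. In the NDC80 complex, NDC80 and NUF2 were at 26.2 and 25.0 CPM per kb in the Vehicle samples, a gap within the spread of the samples, while SPC25 was at 13.4 and SPC24 at 5.83 CPM per kb. With LY500307 they were at 22.3, 17.6, 10.7 and 5.16 CPM per kb. Both shugoshins were lower with LY500307 on this scale as well, SGOL2 going from 16.3 to 11.4 and SGOL1 from 9.29 to 7.10 CPM per kb. Levels per kilobase rest on the annotated transcript, and the transcripts these cells use were not measured. The plot of levels by role shows CENPP as the lowest of these genes.

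**Figure D4:**
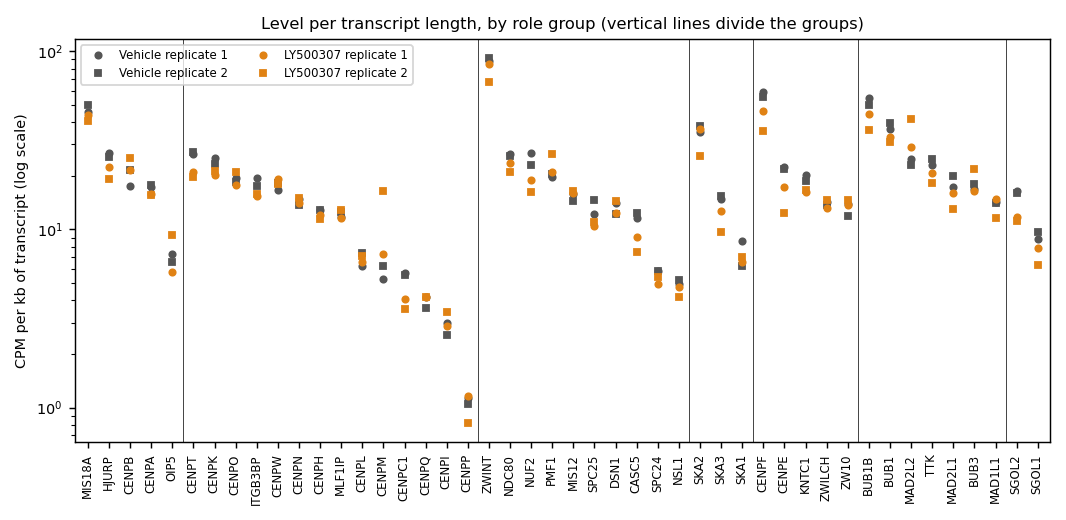
Level per kilobase of annotated transcript (y axis, log scale) in each of the 4 samples for 46 genes, with vertical lines between role groups. ZWINT is highest and CENPP lowest in every sample.

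A further 47 genes that act from the kinetochore to anaphase were examined beside these. Of them 7 fell and 1 rose, where 5.5% of all genes tested fell and 6.09% rose, and the median log2 fold change was -0.11. At the study's criteria 1 was higher, against 2.76% of all genes tested. MAD2L1BP, which encodes the p31comet protein that takes apart the checkpoint complex, rose from 31.3 and 30.9 CPM to 38.1 and 51.0 CPM (log2 fold change 0.52, standard error 0.16).

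In the chromosomal passenger complex, which corrects wrong attachments, INCENP fell from 129 and 130 CPM to 118 and 89.0 CPM (log2 fold change -0.32), while the kinase gene AURKB and the genes BIRC5 and CDCA8 had values of 0.22, -0.18 and 0.18 that did not pass the test. Of 16 genes of the anaphase-promoting complex and its regulators, only the inhibitor FBXO5 fell (log2 fold change -0.36), and 0 rose. NEK2, a centrosomal kinase gene, fell by 0.37 on the log2 scale, and PLK1, AURKA and CDK1 were at -0.20, -0.18 and -0.01. Among 11 microtubule factors of the kinetochore, C15orf23 and CCDC99 fell, by 0.28 and 0.27 on the log2 scale. APITD1, which encodes CENP-S, also fell (log2 fold change -0.50, standard error 0.20). Securin (PTTG1) and separase (ESPL1) genes had log2 fold changes of -0.26 and -0.11 and did not pass the test.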

How the data were processed

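Per the labels, OCSCs were sorted from SKOV3 cells, and their RNA was made into TruSeq libraries read as short single ends. Alignment by the authors was to hg19 with TopHat2 2.0.8b (submitters' processing notes), and they deposited raw HTSeq counts per gene symbol. The 5 tally lines were left out. The labels name a total RNA kit and the methods a stranded mRNA one. The annotation and strand setting of the counting are not given in the sources used here, so overlapping genes cannot be told apart on opposite strands; by GENCODE 44 (GRCh37, the same assembly as hg19), some exons of CENPT, OIP5, MAD2L2, SGOL2 and other members overlap another counted gene.

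Counts were filtered (filterByExpr), scaled by TMM and tested with edgeR 4.0.16 in R 4.3.3, LY500307 against Vehicle, with Benjamini-Hochberg adjustment over all genes. The standard error is the absolute log2 fold change over the square root of F. With 2 samples against 2, an exact permutation test of 1 gene cannot go below p = 0.333. CPM use TMM-scaled totals. Alternatives were DESeq2 1.42.0 (the study's tool), other scalings and filters, a replicate block, a GC correction (loess of log2 CPM, prior count 2, span 0.3; 91.8% of symbols matched) and leaving out each sample. GC content and length are of the MANE Select transcript, or the longest where there was none. The procedure was tested on simulated counts in which 200 genes were given a log2 fold change of 1 or -1. At the study's criteria it called 96% of these, and also 262 unchanged genes. The planted changes were larger than the falls reported here, so this test does not cover changes of their size. Genes named with full statistics were those with an unadjusted p below 0.05 and the smallest p of each role group; among the further genes, those at the study's criteria and the smallest p of each group, and other names were added after their values were seen. The members and lists were chosen with earlier results of these data known. The values of 1 of the further genes are not reported here.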

Additional observations from a re-analysis of the deposited data

How the results depend on the processing

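The 15 genes that fell had a negative log2 fold change under every alternative run. The lower genes at the study's criteria (5) were 2 with library totals alone, 0 with the GC correction, alone or joined to the block, and 0 to 11 with 1 sample left out; the higher genes (2) were 1 with either GC correction and 0 to 2 with 1 sample left out. Genes with an unadjusted p below 0.05 were 10 to 15 lower and 2 higher with all samples, and 5 to 21 lower and 1 to 7 higher with 1 left out. The 21 and 7 came without LY500307 replicate 1, where 20.6% of all genes were lower and 19.8% higher. Genes with an adjusted p below 0.05 were 0 with all samples and 0 to 26 with 1 left out (26 without LY500307 replicate 1, where 33.6% of all genes passed, and 9 without replicate 2, where 3.97% did), and genes whose LY500307 samples both lay above were 7 to 14. Genes called at the criteria over all genes (669) were 352 to 1987 with 1 sample left out. The 7 to 14 were counted with 1 sample left out, where every remaining LY500307 sample lay above every remaining Vehicle sample. Groups with fewer samples separate more easily, and the share of all genes was not computed for these counts. Whether these counts exceed such a share was therefore not tested. Fits with a lone LY500307 sample take their spread from the Vehicle pair, which was the closer one. Of the further genes, the lower count (1) was 0 with library totals alone, 2 with all genes of at least 1 count, 2 with the replicate block and 0 with the GC correction, and 0 to 8 with 1 left out; the higher count (1) was 2 with DESeq2, 2 with all genes of at least 1 count, 0 with either form of GC correction, and 0 to 4 with 1 left out. For the further genes, the 8 and the 4 came without LY500307 replicate 1. There 6.17% of all genes were lower at the criteria and 7.16% higher, and an excess over these shares was not tested. With 1 sample left out, the log2 fold change of INCA1 ran from -0.36 to 1.13, reaching -0.32 without LY500307 replicate 1. That of PTTG1 ran from -0.59 to 0.014.

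Across 14473 genes, same-numbered samples deviated from their groups with a correlation of -0.07 (-0.23 over genes above the median level and 0.23 over the 47 genes), so with this mixed sign the numbers were not taken to pair the samples. With the replicate number as a block, 12 genes fell and 2 rose (5.52% and 5.69% of all genes), and 5 lower and 2 higher genes met the criteria (2.18% and 2.77%). Why these counts moved was not tested.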
